A study of Homo sapiens with 27 samples.

Results

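The genes of 10 secreted growth factors and related ligands were followed across 5 states of the IMR90 line, fibroblasts grown from human fetal lung: AREG, EREG, HBEGF, NRG1, HGF, VEGFA, VEGFC, FGF2, FGF7 and ANGPTL4. The 10 members were chosen by name, with earlier results of these data known, out of 19310 protein-coding genes and 60534 gene IDs shared by all libraries. All 10 matched 1 gene ID each and all 10 passed the filter on low counts in both kinds of library. RNA-seq gave the mRNA level. Ribosome profiling (Ribo-seq), which sequences the mRNA fragments that ribosomes shield from RNase, gave the footprints. Neither method measures the protein released from the cell.

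The labels give the genotype as WT for 4 of the states and none for the thapsigargin libraries, and all cells grew in DMEM with 10% fetal bovine serum. Cycling cells were harvested at 40 to 60% confluency. Quiescent cells are called contact inhibited in the labels. Irradiated cells received 15 Gy of ionizing radiation and were harvested after 10 days. Etoposide, an inhibitor of topoisomerase II, was given 3 times at 50 µM within 10 days. Both of these states are called senescent in the labels. Thapsigargin, which blocks the calcium pump of the endoplasmic reticulum, was given to cycling cells at 25 nM for 3 h, in a medium described without antibiotics. A tag on its 2 RNA-seq libraries names ribosome-protected fragments, while their titles say RNA-seq. They were grouped by title, and their counts lay on the strand that the other RNA-seq libraries use. There were 3 libraries of each kind per state, except for 2 of cycling RNA-seq, 2 of thapsigargin RNA-seq and 2 of thapsigargin Ribo-seq, which makes 27 in all. The labels do not say whether replicates came from separate cultures, so the p-values measure the spread between these libraries, which may be technical. No vehicle-treated cells are among the groups.

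The RNA-seq libraries held 20608930 to 57037578 gene counts and the Ribo-seq libraries 1934420 to 19978464. The shallowest Ribo-seq libraries were those of thapsigargin (1934420 and 2042188) and irradiation (2647321 to 5547627). In the thapsigargin RNA-seq libraries 1.35 to 1.40% of reads did not map, against 27.8 to 40.6% elsewhere, and in their Ribo-seq libraries 65.2 to 66.9% of reads mapped to several places, against 19.8 to 31.9%. Treatment, medium and preparation cannot be told apart for thapsigargin. Of 10 fibroblast markers, among them COL1A1 and DCN, the summed RNA level was 10990 to 19260 CPM (counts in every 1000000 gene counts) in each library. VIM, a large part of the sum, was at 3711 to 6623 CPM. Others ranged further, such as LUM from 19.6 to 346 CPM and COL3A1 from 201 to 1954 CPM. Of 6 epithelial markers, CDH1, EPCAM, KRT5 and KRT14 stayed under 1 CPM in RNA, but KRT19 ranged from 1.99 to 96.3 CPM and CLDN4 from 0.161 to 17.6 CPM, so that their sum was 2.69 to 3.72 CPM after etoposide, 5.35 to 8.68 after irradiation, 17.3 to 25.0 in cycling, 8.71 to 22.8 in quiescent and 107 to 111 CPM in thapsigargin libraries. Of 6 endothelial markers, PECAM1, CDH5, CLDN5 and TIE1 stayed under 1 CPM, VWF was at 0.584 to 2.53 CPM, and TEK at 2.88 to 88.3 CPM gave most of the sum, 57.2 to 90.0 CPM after etoposide, 33.8 to 37.1 after irradiation, 14.8 to 29.1 in the quiescent, 18.2 to 25.0 in the cycling and 4.97 to 5.11 CPM in the thapsigargin libraries. The 6 immune markers summed to at most 1.83 CPM in RNA, and the 4 smooth muscle markers, ACTG2 and CNN1 foremost, to 239 to 713 CPM. The part of KRT19, CLDN4, TEK and the other non-fibroblast markers in the results below was not tested.

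The members are ligands by which fibroblasts signal to epithelium, vessels and each other. AREG, EREG and HBEGF are made as membrane-bound precursors of the epidermal growth factor (EGF) family, are released by ADAM proteases, and activate the receptor EGFR. NRG1, of the same family, binds ERBB3 and ERBB4. HGF is a mesenchymal factor that activates the receptor MET on epithelial cells once a protease has cleaved it. FGF7, the keratinocyte growth factor, also acts on epithelium, while FGF2 lacks a classical signal peptide and leaves the cell by another route. VEGFA drives the growth of blood vessels and VEGFC that of lymphatic vessels. ANGPTL4 is a secreted inhibitor of lipoprotein lipase and a known target of PPAR transcription factors and of hypoxia. Several of these factors are listed among the secretory products of senescent cells.

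EREG and AREG are neighbours on chromosome 4 in RefSeq (GRCh38.p14): EREG (ENSG00000124882) spans 74365145 to 74388749 and AREG (ENSG00000109321) 74445136 to 74455005, with 56.4 kb and no other gene between them. FGF2 (ENSG00000138685; 122826682 to 122898236) and VEGFC (ENSG00000150630; 176683538 to 176792922) lie on the same chromosome. HBEGF (ENSG00000113070) is at 140332843 to 140346603 on chromosome 5, VEGFA (ENSG00000112715) at 43770211 to 43786487 on chromosome 6 and HGF (ENSG00000019991) at 81699010 to 81770047 on chromosome 7. NRG1 has the identifier ENSG00000157168. FGF7 (ENSG00000140285) is at 49423242 to 49488775 on chromosome 15 and ANGPTL4 (ENSG00000167772) at 8364155 to 8374370 on chromosome 19.

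The 250 bases before the start of each gene, from the RefSeq table of GRCh38.p14, were taken for 8 of the 10 members. Windows of NRG1 and VEGFA are not reported here. For FGF2 the table sets the start inside the gene span given above, and for the remaining 7 the window ends at the gene's edge. The windows of 5 are shown, because EREG and AREG are neighbours, ANGPTL4 had the largest rise after etoposide, and HGF and FGF7 fell together under thapsigargin. They are written 5′ to 3′ on the strand of the gene. Capitals mark matches, on either strand, to the TATA motif TATAAA, the cAMP response element TGACGTCA, the GC box GGGCGG or the core hypoxia response element ACGTG.
EREG, chr4:74364895-74365144, plus strand: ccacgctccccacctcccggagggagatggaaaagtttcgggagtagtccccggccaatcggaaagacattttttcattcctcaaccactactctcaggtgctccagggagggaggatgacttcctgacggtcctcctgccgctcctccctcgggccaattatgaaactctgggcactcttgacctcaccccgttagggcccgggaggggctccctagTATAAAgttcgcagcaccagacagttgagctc
AREG, chr4:74444886-74445135, plus strand: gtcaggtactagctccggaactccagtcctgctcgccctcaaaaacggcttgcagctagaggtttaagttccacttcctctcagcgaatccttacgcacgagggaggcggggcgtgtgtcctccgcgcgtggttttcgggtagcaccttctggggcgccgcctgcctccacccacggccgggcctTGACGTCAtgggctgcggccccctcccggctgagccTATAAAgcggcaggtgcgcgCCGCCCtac
ANGPTL4, chr19:8363905-8364154, plus strand: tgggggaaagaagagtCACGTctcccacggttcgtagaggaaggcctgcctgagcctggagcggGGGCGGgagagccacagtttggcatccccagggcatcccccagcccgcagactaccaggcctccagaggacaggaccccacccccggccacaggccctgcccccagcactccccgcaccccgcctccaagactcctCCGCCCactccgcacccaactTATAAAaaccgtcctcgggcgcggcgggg
HGF, chr7:81770048-81770297, minus strand: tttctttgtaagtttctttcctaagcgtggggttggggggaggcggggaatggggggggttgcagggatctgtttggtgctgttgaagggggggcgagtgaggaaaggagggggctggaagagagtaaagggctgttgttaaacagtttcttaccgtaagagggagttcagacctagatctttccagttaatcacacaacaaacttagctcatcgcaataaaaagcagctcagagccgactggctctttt
FGF7, chr15:49422992-49423241, plus strand: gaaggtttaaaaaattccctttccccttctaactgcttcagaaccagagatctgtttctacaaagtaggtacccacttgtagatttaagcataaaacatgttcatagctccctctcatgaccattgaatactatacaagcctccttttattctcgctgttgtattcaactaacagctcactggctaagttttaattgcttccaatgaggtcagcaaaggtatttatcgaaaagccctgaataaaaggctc

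A TATA motif began 32 bases before the start in EREG and 29 bases before it in AREG and in ANGPTL4, and was found in none of the other 5 of these members. Of all 35116 RefSeq genes with such a window, 10.7% held it anywhere in the 250 bases. The cAMP response element occurred in AREG alone among the 8, from 65 to 58 bases before the start, and in 1.65% of all windows. The AP-1 motif TGANTCA, found in 6.57% of all windows, occurred in none of the 8. The core ACGTG occurred in ANGPTL4 alone, at 234 to 230 bases before the start, and in 18.5% of all windows. GC boxes occurred in AREG, ANGPTL4, FGF2, HBEGF and VEGFC, and in 42.6% of all windows. Matches of different motifs did not overlap. The windows of HGF and FGF7 held none of the 5 motifs, and their GC content was 50% and 38.4%, against a median of 58% over all windows. A match is a description of the letters only.

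Levels are given in CPM of the counts in tested protein-coding genes, after TMM scaling. Changes are log2 fold changes ± SE from edgeR's quasi-likelihood test on raw counts, and a gene was called at a Benjamini-Hochberg adjusted p under 0.05 over all genes tested. A rise or fall always means such a call. Changes in mRNA, in footprints and in their ratio are relative to the other genes of a library. No total of mRNA or of translation per cell was used. Levels of different genes are not compared, since counts also depend on transcript length. In these bulk samples, fewer cells making a factor and less of its RNA per cell cannot be told apart.

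In RNA, 6 of the 10 members rose after etoposide and none fell against cycling cells, where 34.6% of all genes tested were called in either direction. After irradiation, 3 rose and 4 fell (34.9% of all genes called). With thapsigargin, 6 rose and 2 fell (24.5%). In quiescent cells 1 member fell, VEGFC (15.6%). Against quiescent cells, 7 members were higher after etoposide (41.7%), and 3 were higher and 1 lower after irradiation (18.7%). Comparing both senescent states directly, 7 members were lower after irradiation than after etoposide and none was higher (22.6%). The median log2 difference of the 10 members in that comparison was -1.79, against 0.06 over all genes tested.

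In footprints the calls after etoposide and between the inducers went the same way, while fewer members were called after irradiation (4, against 7 in RNA). Against cycling cells, 6 members rose after etoposide (33.9% of all genes called), 2 rose and 2 fell after irradiation (40.5%), 5 rose and 2 fell with thapsigargin (44.6%), and 2 fell in quiescent cells (22.4%), or 3 with the replicate number as a block. The count after irradiation depended on the fit: with only the groups compared, calls were added among AREG, EREG, NRG1, HGF and VEGFA. Against quiescent cells, 8 were higher after etoposide (35.8%) and 2 after irradiation (14.6%). After irradiation 8 members were lower than after etoposide (22.5%), with a median of -2.50 for the 10 members and 0.06 for all genes. The comparisons with cycling cells share the cycling libraries, so the states are set side by side below and their agreement is not used as evidence. The inducers differed in kind and schedule, and each was given at 1 dose.

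**Figure D1:**
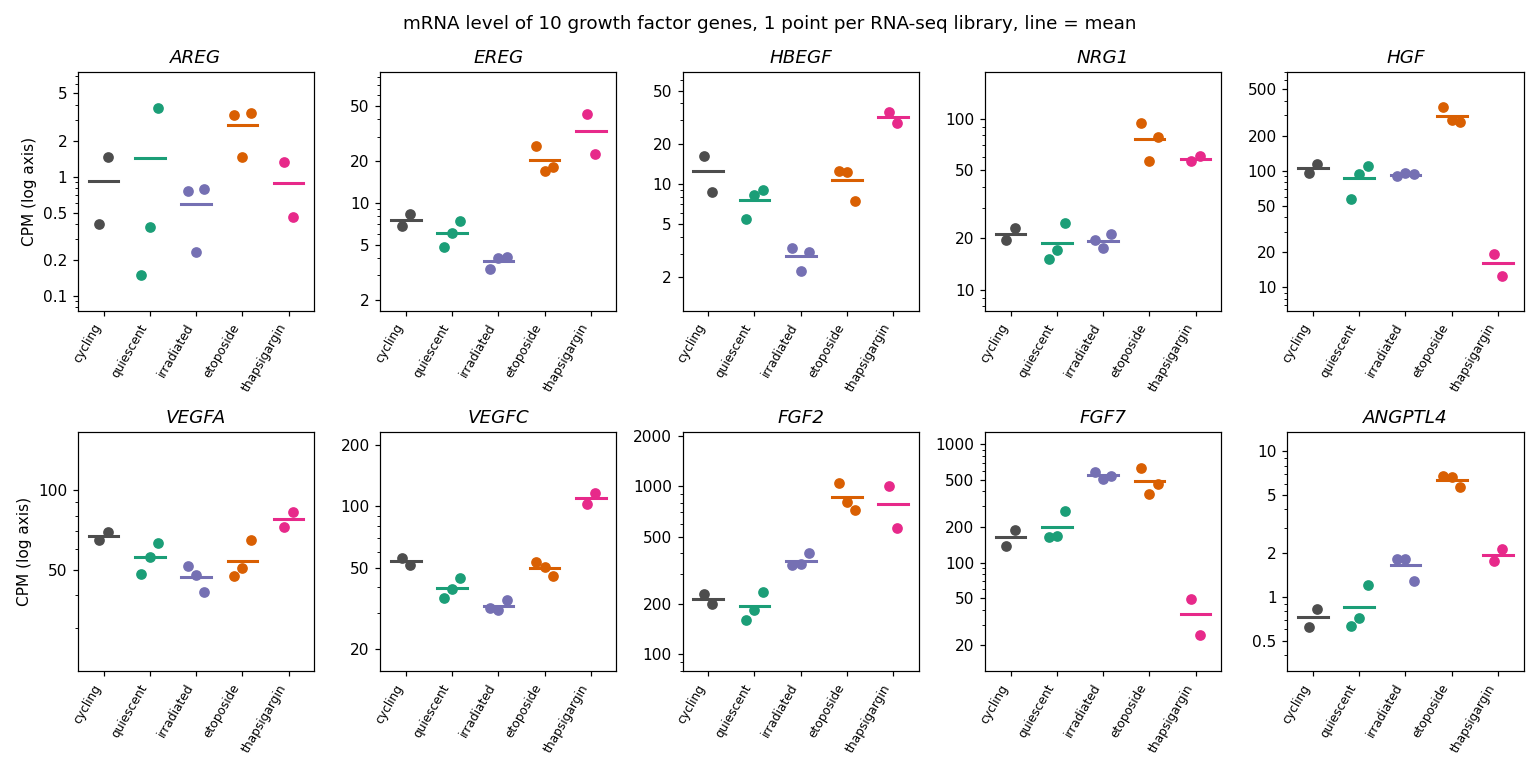
mRNA level in CPM (log axis) of each member in each RNA-seq library, by state, with 1 point per library and a line at the mean. After etoposide the points of EREG, NRG1, HGF, FGF2 and ANGPTL4 lie above all cycling, quiescent and irradiated points, while FGF7 is high in both senescent states and HGF and FGF7 are lowest with thapsigargin.

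**Figure D2:**
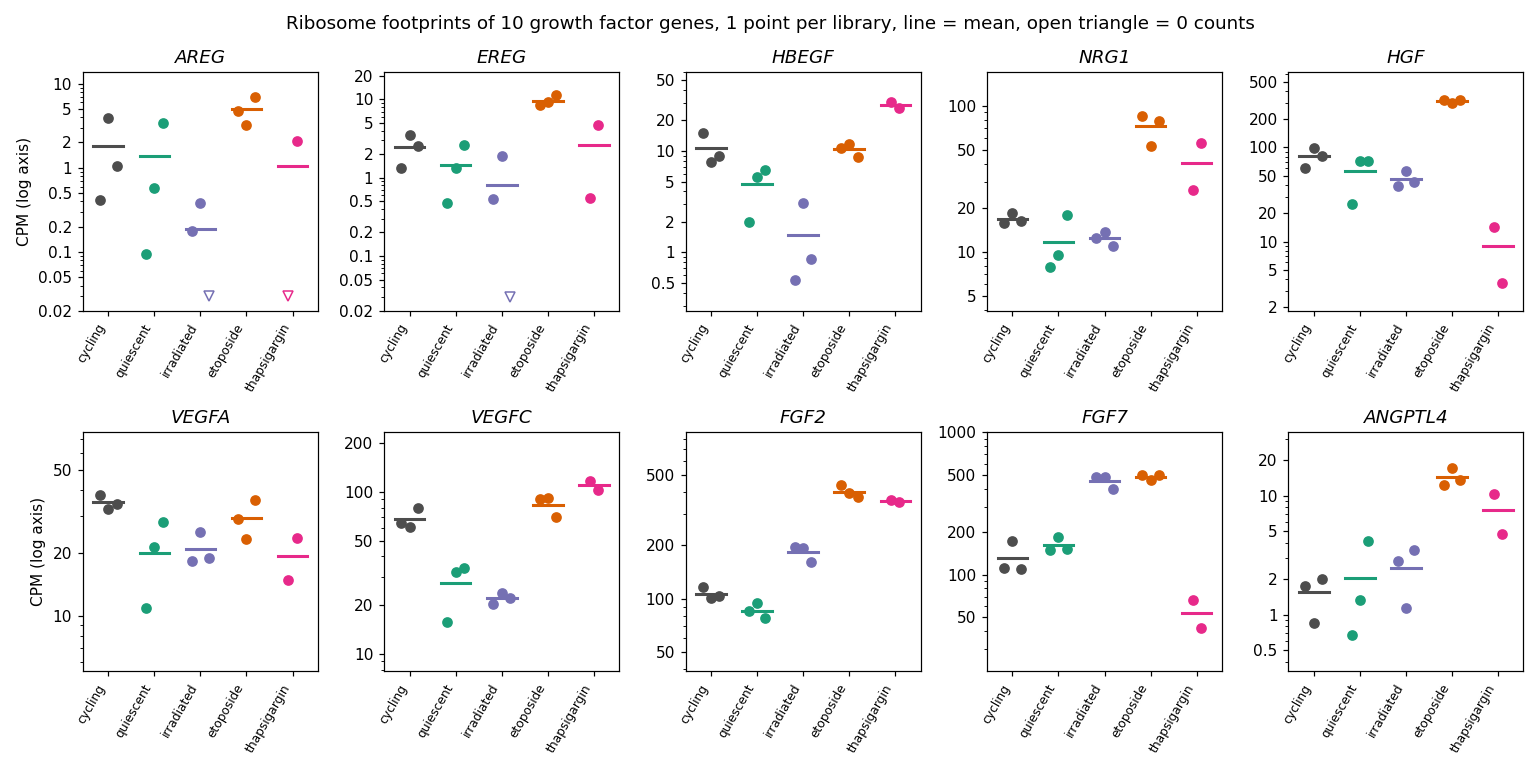
Ribosome footprints in CPM (log axis) of each member in each Ribo-seq library, by state, with 1 point per library, a line at the mean and open triangles, drawn at the foot of the panel, for libraries with 0 counts. AREG and EREG have few footprints after irradiation (2 and 8 counts in all), and VEGFC is lower in quiescent and irradiated than in cycling, etoposide and thapsigargin libraries.

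EREG, an EGF receptor ligand, was the EGF family member with opposite calls after the 2 inducers: its mRNA rose after etoposide and fell after irradiation. Cycling libraries held 6.86 and 8.25 CPM, quiescent ones 4.83, 6.04 and 7.38, irradiated ones 3.34, 4.03 and 4.05, etoposide ones 25.5, 17.0 and 18.2 and thapsigargin ones 43.8 and 22.3 CPM. The irradiated, cycling and etoposide libraries did not overlap. Against cycling cells the log2 change was 1.42 ± 0.29 after etoposide (adjusted p = 0.00186) and -0.99 ± 0.29 after irradiation (adjusted p = 0.017). The second call was lost without cycling RNA-seq replicate 2 or irradiated replicate 1 (-0.90 to -0.85, adjusted p up to 0.113). The direct difference, irradiation minus etoposide, was -2.41 ± 0.26 (adjusted p = 8.53e-05), a 5.32-fold higher level after etoposide.

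EREG footprints were sparse, and their means followed the order of the mRNA, from irradiated over quiescent and cycling to etoposide. They stood at 1.34, 3.46 and 2.54 CPM in cycling, 0.480, 1.32 and 2.61 in quiescent libraries, 0.532, 1.90 and 0 in irradiated and 8.37, 9.30 and 11.2 CPM in etoposide libraries. The 3 irradiated libraries held 8 EREG footprints in all and the etoposide libraries 173. The rise after etoposide was 1.94 ± 0.57 (adjusted p = 0.0167), and was lost without cycling Ribo-seq replicate 1 or 3 or etoposide replicate 3 (1.65 to 1.96, adjusted p up to 0.0772). The irradiated libraries were -1.82 from cycling on the log2 scale, which was not called (adjusted p = 0.119), and -3.76 ± 0.81 from etoposide (adjusted p = 0.00481). Without irradiated Ribo-seq replicate 2 that last value was -4.86.

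AREG, the neighbouring EGF receptor ligand, was close to the limit of detection. Its mRNA was at 0.402 and 1.45 CPM in cycling, 0.150, 0.378 and 3.79 in quiescent libraries, 0.758, 0.235 and 0.786 in irradiated, 3.29, 1.48 and 3.40 in etoposide and 1.32 and 0.457 CPM in thapsigargin libraries. These values rest on 4 to 126 counts a library, and the 3 quiescent libraries spread over more than the range of all cycling libraries. AREG was called in no RNA comparison. Its RNA difference between irradiation and etoposide was -2.19 (adjusted p = 0.0995), with all 3 etoposide libraries above all 3 irradiated ones. In Ribo-seq the irradiated libraries held 1, 1 and 0 footprints of AREG, and the etoposide libraries 27, 21 and 40. Scaled for depth, the etoposide level was 28.7 times the irradiated one, with a 95% interval for counting error of 7.71 to 240. edgeR called this difference (adjusted p = 0.0476), but the call was lost on leaving out any 1 of 10 of the 14 libraries (adjusted p up to 0.167), all but cycling replicates 1 and 2 and quiescent replicates 1 and 3.

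HBEGF, another EGF receptor ligand, fell after irradiation and was not called after etoposide. The mRNA stood at 16.2 and 8.67 CPM in cycling, 5.46, 8.23 and 9.03 in quiescent libraries, 3.30, 2.23 and 3.06 in irradiated and 12.4, 12.4 and 7.47 CPM in etoposide libraries. Irradiated libraries lay below every other library of these states. The fall against cycling cells was -2.12 ± 0.31 (adjusted p = 0.000161), a 4.35-fold lower level, and against quiescent cells -1.40 ± 0.29 (adjusted p = 0.00467). After etoposide the change was -0.22, with a 95% interval of -0.86 to 0.42 (adjusted p = 0.602). Irradiation and etoposide differed by -1.90 ± 0.29 (adjusted p = 0.000581).

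HBEGF footprints were 15.2, 7.84 and 9.00 CPM in cycling, 2.01, 5.58 and 6.56 in quiescent libraries, 0.532, 3.04 and 0.869 in irradiated and 10.8, 11.6 and 8.80 CPM in etoposide libraries. They fell after irradiation, with a log2 change of -3.08 ± 0.59 (adjusted p = 0.00105), and the difference from etoposide was -3.05 ± 0.60 (adjusted p = 0.00305). The irradiated libraries held 3, 8 and 3 footprints of HBEGF. Without irradiated replicate 2 these differences were -4.01 and -3.97. After etoposide the change was -0.03 (95% interval -0.91 to 0.85). A higher footprint level after etoposide than in quiescent cells, 1.15, just passed the test (adjusted p = 0.0458) and was lost on leaving out any 1 of 10 of the 14 libraries (0.78 to 1.28, adjusted p up to 0.109), all but cycling replicate 1, quiescent replicate 3 and irradiated replicates 1 and 2. It was also lost with no filter on low counts, all biotypes, the replicate number as a block, or only the groups compared (adjusted p = 0.054, 0.0542, 0.0656 and 0.0791).

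NRG1, the ligand of ERBB3 and ERBB4, rose after etoposide and was not called in the other arrested states. Levels of NRG1 mRNA were 19.5 and 23.0 CPM in cycling, 15.1, 17.2 and 24.5 in quiescent libraries, 19.5, 17.5 and 21.2 in irradiated and 93.9, 56.5 and 77.9 CPM in etoposide libraries. The etoposide libraries lay above all others of these states, a 3.58-fold rise against cycling cells (1.84 ± 0.23, adjusted p = 4.58e-05). The change after irradiation was -0.13 with a 95% interval of -0.61 to 0.35. Footprints were at 15.7, 18.5 and 16.2 CPM in cycling, 7.87, 9.44 and 17.9 in quiescent libraries, 12.4, 13.7 and 11.0 in irradiated and 85.3, 53.0 and 78.5 CPM in etoposide libraries, a rise of 2.10 ± 0.30 after etoposide (adjusted p = 0.000121). The irradiated footprint libraries of NRG1 all lay below the cycling ones, though this difference was not called. The irradiated level was below that after etoposide, with a log2 difference of -1.97 ± 0.20 in RNA (adjusted p = 6.65e-05) and -2.55 ± 0.33 in footprints (adjusted p = 0.000319).

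HGF, the MET ligand, rose after etoposide and was not called in the other arrested states. In RNA the level was 95.2 and 114 CPM in cycling, 57.3, 93.5 and 109.5 in quiescent libraries, 89.5, 95.1 and 92.9 in irradiated and 353, 271 and 263 CPM in etoposide libraries. The rise after etoposide was 2.83-fold (1.50 ± 0.25, adjusted p = 0.000449), and the etoposide libraries lay above all others. After irradiation the change was -0.18 with a 95% interval of -0.69 to 0.34. HGF footprints were at 61.0, 99.2 and 80.4 CPM in cycling, 25.1, 71.8 and 72.0 in quiescent libraries, 38.7, 56.6 and 42.9 in irradiated and 318, 295 and 318 CPM in etoposide libraries. They rose after etoposide by 1.95 ± 0.34 (adjusted p = 0.000563) and changed by -0.82 after irradiation, which was not called (adjusted p = 0.0779) although all 3 irradiated libraries lay below all 3 cycling ones. The difference between irradiation and etoposide was -1.68 ± 0.22 in RNA (adjusted p = 0.000257) and -2.77 ± 0.36 in footprints (adjusted p = 0.000332).

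FGF7, the keratinocyte growth factor, rose with both inducers, and their direct difference did not pass the test. The mRNA was measured at 139 and 187 CPM in cycling, 165, 167 and 271 in quiescent libraries, 587, 506 and 542 in irradiated and 633, 381 and 461 CPM in etoposide libraries. Both senescent states lay above all cycling and quiescent libraries and overlapped each other. The changes against cycling cells were 1.74 ± 0.31 after irradiation (adjusted p = 0.00075) and 1.59 ± 0.31 after etoposide (adjusted p = 0.00142). The inducers differed by 0.15 in RNA, with a 95% interval of -0.41 to 0.71, and by -0.10 in footprints, with an interval of -0.47 to 0.28. These intervals bound the difference on the log2 scale and do not show that both inducers act alike.

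FGF7 footprints stood at 112, 173 and 109.9 CPM in cycling, 149, 184 and 150.5 in quiescent libraries, 483, 488 and 401 in irradiated and 502, 464 and 500.2 CPM in etoposide libraries. They rose by 1.80 ± 0.18 after irradiation (adjusted p = 5.03e-06) and by 1.89 ± 0.18 after etoposide (adjusted p = 2.61e-06). Both states were also above quiescent cells, by 1.44 and 1.29 in RNA (adjusted p = 0.00219 and 0.00171). In quiescent cells the RNA change against cycling was 0.30 (95% interval -0.33 to 0.94). RefSeq lists 8 pseudogene copies of FGF7, and reads that match several places are in no gene's count, so the level of FGF7 may be understated and is uncertain.

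FGF2, the basic fibroblast growth factor, also rose with both inducers, but further after etoposide. Levels of FGF2 mRNA were 229 and 199.9 CPM in cycling, 159, 184 and 236 in quiescent libraries, 339, 346 and 400.5 in irradiated and 1049, 808 and 725 CPM in etoposide libraries. These 4 states were ordered with no overlap between the irradiated, the etoposide and the non-senescent libraries. The rise was 0.75 ± 0.23 after irradiation (adjusted p = 0.023) and 2.00 ± 0.25 after etoposide (adjusted p = 3.63e-05). The RNA call after irradiation was lost without cycling RNA-seq replicate 1 or 2 or irradiated replicate 3 (0.66 to 0.85, adjusted p up to 0.152). Its footprints were tighter, at 116, 100.5 and 104 CPM in cycling, 84.9, 94.1 and 78.1 in quiescent libraries, 196, 193 and 162 in irradiated and 436, 396 and 373 CPM in etoposide libraries.

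Footprints of FGF2 rose by 0.78 ± 0.11 after irradiation (adjusted p = 6.96e-05) and 1.91 ± 0.11 after etoposide (adjusted p = 1.21e-08), and the inducers differed by -1.13 ± 0.11 (adjusted p = 7.72e-05). In RNA this difference was -1.25 ± 0.21 (adjusted p = 0.000977). A small fall in quiescent footprints, -0.32 ± 0.11 (adjusted p = 0.0439), was lost on leaving out any 1 of 7 libraries, which were all 3 cycling ones, quiescent replicates 1 and 3 and etoposide replicates 2 and 3 (-0.36 to -0.25, adjusted p up to 0.133). It was also lost with no filter on low counts, with both strands counted and with only the groups compared (adjusted p = 0.0758, 0.053 and 0.0791).

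VEGFC, the lymphatic vessel factor, fell in quiescent and in irradiated cells and not after etoposide. In RNA the libraries held 55.7 and 51.7 CPM in cycling, 35.4, 39.2 and 44.5 in quiescent libraries, 31.5, 31.0 and 34.5 in irradiated and 53.6, 50.5 and 45.7 CPM in etoposide libraries. Irradiated and quiescent libraries lay below the cycling and etoposide ones. In RNA the falls were -0.44 ± 0.13 in quiescent (adjusted p = 0.0331) and -0.73 ± 0.13 in irradiated cells (adjusted p = 0.000582). The quiescent RNA call was lost without either cycling library, quiescent replicate 1 or 2, irradiated replicate 1 or etoposide replicate 2 (-0.49 to -0.36, adjusted p up to 0.239) and when only the groups compared were fitted (adjusted p = 0.139).

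The contrast was wider in footprints of VEGFC, which were at 64.3, 61.2 and 79.5 CPM in cycling, 15.7, 31.9 and 34.2 in quiescent libraries, 20.4, 23.9 and 22.0 in irradiated and 90.0, 91.3 and 69.9 CPM in etoposide libraries. Their log2 change was -1.33 ± 0.23 in quiescent cells (adjusted p = 0.0014) and -1.64 ± 0.25 after irradiation (adjusted p = 0.000177). After etoposide the change was -0.11 in RNA (95% interval -0.38 to 0.17) and 0.29 in footprints (-0.19 to 0.78). Irradiated cells were below etoposide-treated ones, with log2 differences of -0.63 ± 0.11 in RNA (adjusted p = 0.00179) and -1.93 ± 0.25 in footprints (adjusted p = 0.000315). Etoposide-treated cells were above quiescent ones by 0.33 in RNA (adjusted p = 0.0331), a call lost without quiescent or etoposide replicate 1 or 2 (0.27 to 0.33, adjusted p up to 0.115) or with only the groups compared (adjusted p = 0.0666), and by 1.62 ± 0.23 in footprints (adjusted p = 0.000134).

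VEGFA, the blood vessel factor, had the narrowest range of state means in RNA. Levels of VEGFA mRNA were 64.8 and 69.5 CPM in cycling, 48.3, 55.8 and 63.4 in quiescent libraries, 51.8, 47.7 and 41.4 in irradiated and 47.3, 50.7 and 64.6 CPM in etoposide libraries. Only the fall after irradiation was called in RNA, at -0.52 ± 0.16 (adjusted p = 0.0221), and that call was lost without cycling RNA-seq replicate 1 or 2 or irradiated replicate 3 (-0.57 to -0.43, adjusted p up to 0.128). Footprints were at 37.8, 32.6 and 34.3 CPM in cycling, 10.8, 21.4 and 27.9 in quiescent libraries, 18.3, 25.1 and 18.8 in irradiated and 29.1, 23.2 and 35.9 CPM in etoposide libraries, and no footprint comparison of VEGFA was called. Quiescent and irradiated footprints lay below all cycling ones, with uncalled log2 changes of -0.80 and -0.77 (adjusted p = 0.0537 and 0.0546). With the replicate number as a block, which pairs the cycling and quiescent Ribo-seq libraries, the quiescent change was -0.87 and passed the test (adjusted p = 0.036). The inducers differed by -0.21 in RNA, with a 95% interval of -0.52 to 0.10.

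ANGPTL4, the inhibitor of lipoprotein lipase, had the largest rise of the members after etoposide, from a low level. Its mRNA was at 0.621 and 0.830 CPM in cycling, 0.636, 0.717 and 1.21 in quiescent libraries, 1.82, 1.84 and 1.30 in irradiated and 6.78, 6.70 and 5.69 CPM in etoposide libraries, on 16 and 17 counts in the cycling ones. The rise was 8.88-fold after etoposide (3.15 ± 0.32, adjusted p = 6.8e-06) and 2.3-fold after irradiation (1.20 ± 0.33, adjusted p = 0.0123). The latter was lost without cycling RNA-seq replicate 1 (0.99, adjusted p = 0.141). The irradiated level was also above the quiescent one, by 0.96 (adjusted p = 0.0299), which was lost without quiescent or irradiated replicate 1 or 2 (0.79 to 0.88, adjusted p up to 0.101).

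Footprints of ANGPTL4 were at 1.75, 0.848 and 2.01 CPM in cycling, 0.671, 1.32 and 4.15 in quiescent libraries, 2.84, 1.14 and 3.48 in irradiated and 12.2, 17.0 and 13.5 CPM in etoposide libraries. They rose 9.49-fold after etoposide (3.25 ± 0.56, adjusted p = 0.000541), with all 3 libraries above all others of these states. Against quiescent cells the difference was 2.79, or 3.84 without quiescent Ribo-seq replicate 3, the highest of its group. After irradiation the footprint change was 0.80 and was not called (95% interval -0.68 to 2.27). The differences of irradiated from etoposide-treated cells were -1.95 ± 0.25 in RNA (adjusted p = 0.000222) and -2.45 ± 0.60 in footprints (adjusted p = 0.00977).

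**Figure D3:**
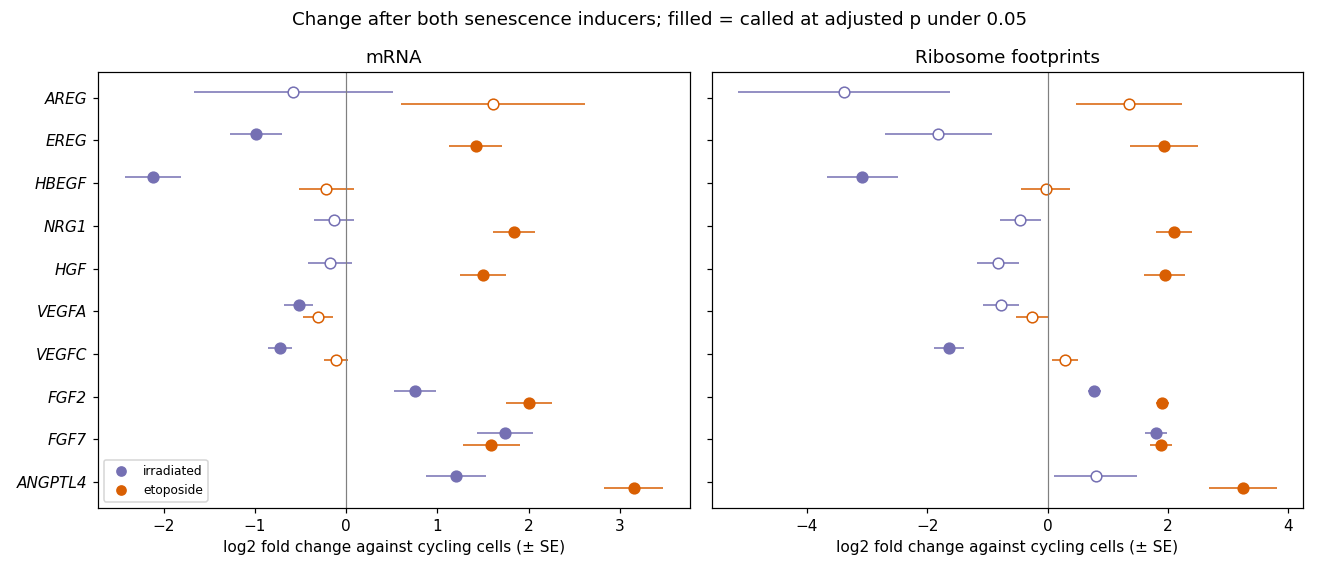
Log2 fold change against cycling cells (± SE) of each member after irradiation and after etoposide, for mRNA (left) and ribosome footprints (right), filled where called at an adjusted p under 0.05. FGF7 has overlapping values for both inducers, EREG lies on opposite sides of 0, and HBEGF and VEGFC are called lower after irradiation and not called after etoposide.

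Across the inducers, then, the members fell into patterns by the direct comparison and each inducer's own calls in RNA. ANGPTL4 and FGF2 rose with both and were higher after etoposide, FGF7 rose with both and did not pass the test of a difference, and NRG1 and HGF rose after etoposide and were not called after irradiation. EREG rose after one and fell after the other, HBEGF and VEGFC fell after irradiation and were not called after etoposide, and AREG and VEGFA did not pass the direct test in RNA. The RNA calls of ANGPTL4, FGF2 and EREG after irradiation were each lost without at least 1 library. In footprints ANGPTL4 and EREG were not called after irradiation. Fibroblast marker sums lay within overlapping ranges in both senescent states, 12960 to 13290 CPM after irradiation and 12950 to 14570 CPM after etoposide, in RNA. In Ribo-seq they did not overlap, at 26580 to 29830 CPM after irradiation and 38120 to 40270 CPM after etoposide, and the part of this in the footprint differences was not tested.

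Thapsigargin gave another pattern, in which HGF and FGF7 fell within 3 h while most other members rose. HGF mRNA was at 19.5 and 12.5 CPM against 95.2 and 114 CPM in cycling libraries, a 6.55-fold fall (-2.71 ± 0.28, adjusted p = 2.22e-05). FGF7 mRNA was at 49.1 and 24.2 CPM against 139 and 187 CPM, a 4.46-fold fall (-2.16 ± 0.34, adjusted p = 0.000536). Their footprints were at 14.2 and 3.67 CPM for HGF and 66.3 and 42.0 CPM for FGF7, falls of -3.18 ± 0.55 (adjusted p = 0.000529) and -1.29 ± 0.23 (adjusted p = 0.000535). The HGF values rest on 26 and 7 footprints, and the fall was -2.50 without the library with 7 and -4.49 without the one with 26. In no other state did the libraries of these genes lie as low.

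The EGF receptor ligands EREG and HBEGF rose in RNA under thapsigargin. EREG was at 43.8 and 22.3 CPM (2.13 ± 0.31, adjusted p = 0.000309) and HBEGF at 34.5 and 28.5 CPM (1.33 ± 0.32, adjusted p = 0.00938), against cycling levels of 6.86 and 8.25 and of 16.2 and 8.67 CPM. The HBEGF call was lost without cycling RNA-seq replicate 2 (0.96, adjusted p = 0.107). HBEGF footprints rose as well, to 30.1 and 26.2 CPM (1.40 ± 0.47, adjusted p = 0.0256), a call that was lost without either thapsigargin library or without cycling replicate 2 or 3 (1.22 to 1.49, adjusted p up to 0.131). EREG footprints did not follow the mRNA clearly: the libraries held 1 and 9 counts, or 0.548 and 4.72 CPM, with a change of 0.10 ± 0.94 (95% interval -1.91 to 2.11). NRG1 rose to 56.8 and 60.2 CPM in RNA (1.46 ± 0.24, adjusted p = 0.000873) and to 26.3 and 55.1 CPM in footprints (1.28 ± 0.36, adjusted p = 0.0109), where leaving out thapsigargin replicate 2 gave 0.63 (adjusted p = 0.275). AREG was at 0 and 2.10 CPM in footprints, or 0 and 4 counts, too few to show a change.

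FGF2, VEGFC and ANGPTL4 rose under thapsigargin in both kinds of library, relative to the other genes of each library. FGF2 mRNA was at 1000 and 563 CPM (1.86 ± 0.26, adjusted p = 0.000218) and its footprints at 361 and 351 CPM (1.74 ± 0.12, adjusted p = 2.18e-07). VEGFC mRNA was at 103 and 116 CPM, above the libraries of every other state (1.03 ± 0.14, adjusted p = 0.000195). Its footprints, at 117 and 103 CPM, rose by 0.69 ± 0.26 (adjusted p = 0.0434), a call lost on leaving out any 1 of 9 libraries (0.55 to 0.77, adjusted p up to 0.235), among them both thapsigargin and all 3 irradiated ones, cycling replicates 1 and 2 and etoposide replicates 1 and 2, and under 4 other settings. ANGPTL4 mRNA was at 1.78 and 2.12 CPM (1.45 ± 0.34, adjusted p = 0.00782) and its footprints at 10.4 and 4.72 CPM (2.33 ± 0.74, adjusted p = 0.0212). The RNA call of ANGPTL4 was lost without cycling replicate 1 (1.23, adjusted p = 0.094) and when only the groups compared were fitted (adjusted p = 0.056), and the footprint call without cycling replicate 2 or thapsigargin replicate 1 (1.62 to 2.00, adjusted p up to 0.289).

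VEGFA differed between the kinds of library. Its mRNA was at 72.4 and 83.0 CPM under thapsigargin, above both cycling libraries at 64.8 and 69.5 CPM, and its footprints at 14.8 and 23.6 CPM, below all 3 cycling libraries at 37.8, 32.6 and 34.3 CPM. Neither change was called, at 0.21 in RNA (adjusted p = 0.409) and -0.86 in footprints (adjusted p = 0.0754). The difference between both changes, in translational efficiency, was tested in a fit over both kinds of library.

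**Figure D4:**
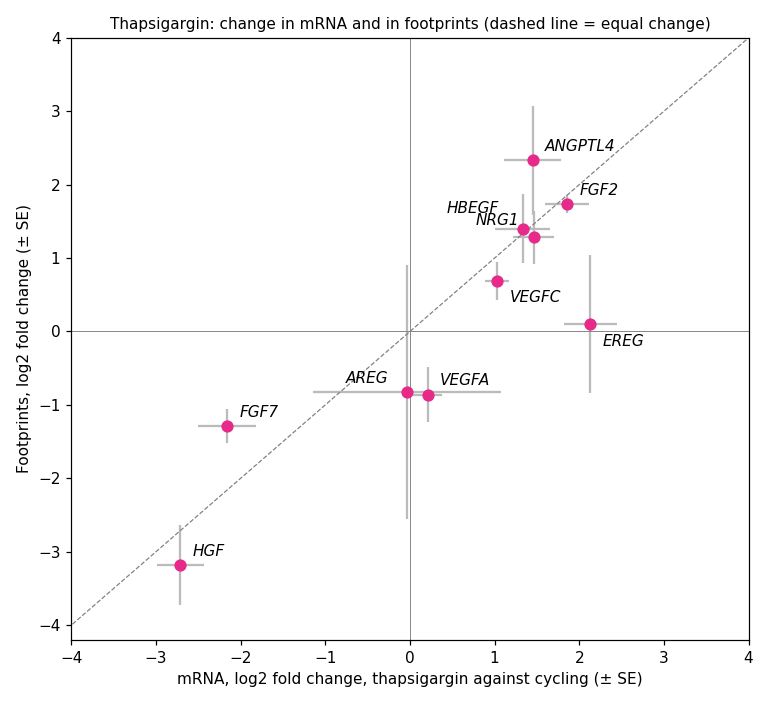
Log2 fold change under thapsigargin against cycling cells in mRNA (horizontal axis) and in ribosome footprints (vertical axis) for the 10 members, each ± SE, with a dashed line where both are equal. HGF and FGF7 lie low on both axes, 5 members lie high on both, and EREG lies farthest below the dashed line.

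Translational efficiency, the ratio of footprints to mRNA for a gene, was tested in 1 fit over all 27 libraries, by asking whether the effect of a state differed between footprints and mRNA (an interaction term). Of the 10 members none was called in quiescent cells (0.00854% of all genes called), after irradiation (0.0512%), after etoposide (0.0683%) or between the inducers (0%), and 1 was called under thapsigargin (20.7%). Among the uncalled members, an unadjusted p under 0.05 was found for VEGFC in quiescent cells, for VEGFC after irradiation, for none after etoposide, and for HGF and VEGFC between the inducers. DESeq2 called 0, 0, 0 and 1 members in these comparisons. The member called under thapsigargin was VEGFA, whose ratio of mean footprint CPM to mean mRNA CPM was 0.520 in cycling and 0.247 in thapsigargin libraries, a change of -1.12 ± 0.39 (adjusted p = 0.0456), against a median of -0.15 over all genes. The call was lost on leaving out any 1 of 17 of the 27 libraries (-1.17 to -0.84, adjusted p up to 0.203) and with RLE scaling (adjusted p = 0.0728). It held on leaving out the other 10 one at a time, which were quiescent and etoposide RNA-seq replicates 1 and 3, quiescent Ribo-seq replicates 1 and 3, irradiated Ribo-seq replicate 2, etoposide Ribo-seq replicates 2 and 3 and thapsigargin Ribo-seq replicate 2. The gene list of the thapsigargin Ribo-seq files (62703 IDs) is longer than that of the remaining Ribo-seq files (60664 IDs), and its part in the ratio was not tested.

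Among the uncalled values, EREG had a ratio of 0.324 in cycling and 0.0797 in thapsigargin libraries, a change of -2.10 ± 0.87 (adjusted p = 0.0868, 95% interval -3.88 to -0.31). The ratio of VEGFC was 1.27 in cycling and 1.68 in etoposide libraries but 0.687 in quiescent and 0.684 in irradiated libraries. Irradiation differed from etoposide by -1.17 ± 0.26 in this ratio, with an unadjusted p of 0.000136 and an adjusted p of 0.277. In quiescent cells the VEGFC value was -0.81 ± 0.26 and in irradiated cells -0.82 ± 0.27, neither called (adjusted p = 1 and 0.466). The ratio of FGF2 ranged only from 0.444 to 0.508 over the 5 states. For HGF the ratio was 0.498 in irradiated and 1.05 in etoposide libraries, a difference of -0.95 ± 0.41 (adjusted p = 0.705). Both HGF and VEGFC did pass between the inducers once the fit was restricted to the states compared. There, 606 of all genes were called against 0 in the main fit. The same restriction called VEGFC after irradiation, where calls over all genes went from 6 to 756. Intervals for AREG and ANGPTL4 were too wide to read, such as -7.40 to 2.44 for AREG between the inducers.

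The genes with the most similar mRNA pattern were taken as the 3 tested genes with the smallest root mean square (RMS) difference from a member in centred log2 state means, over 5 states and 13 libraries. For HGF these were GPC5, PLAT and ABCA13 (RMS 0.21, 0.23 and 0.30), and for FGF7 they were ENPP6, ANGPTL1 and AKR1C1 (0.16, 0.18 and 0.20). For EREG they were HTR7, IGF2 and FICD (0.17, 0.21 and 0.28). For NRG1 they were GALNT9, SPP1 and ZDHHC23 (0.13, 0.14 and 0.22), for FGF2 ATOH8, G0S2 and ANK1 (0.11, 0.19 and 0.20), and for ANGPTL4 HES2, CNTN5 and PPP4R4 (0.10, 0.13 and 0.19). For AREG, with its few counts, they were TENM2, RYR3 and CCN2 (0.09, 0.16 and 0.21). The state means of these 7 members spanned from 2.01 (NRG1) to 4.22 (HGF) on the log2 scale, while those of VEGFA and VEGFC spanned 0.73 and 1.76, too little for such a ranking by the rule used. These are descriptions of similarity over 5 states only.

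Genes around these ligands were described from lists chosen by name. Of 14 receptor genes for the members, 11 were tested in RNA, and 6 of them were lower after irradiation than after etoposide and none higher: EGFR, ERBB2, MET, FGFR1, FGFR3 and KDR (22.6% of all genes were called in either direction). KDR was at the floor, with at most 3 RNA counts over the irradiated libraries and 0 over the quiescent ones. The median difference of the 11 was -0.59, against 0.06 over all genes. Against cycling cells, 6 of the 11 fell after irradiation (34.9% of all genes called) and 3 after etoposide, a share below the 34.6% of all genes called there, and none rose in either state. MET, the HGF receptor, fell from 82.5 CPM (mean) in cycling to 23.7 CPM in irradiated cells (-1.80 ± 0.23, adjusted p = 5.6e-05) and was at a log2 change of -1.02 after etoposide (adjusted p = 0.00369). NRP1, a coreceptor for VEGFA, fell after both, with log2 changes of -2.07 ± 0.16 after irradiation (adjusted p = 6.87e-07) and -1.69 after etoposide (adjusted p = 3.11e-06). ERBB3, a receptor for NRG1, fell after etoposide (-2.13), from 1.29 to 0.292 CPM (adjusted p = 0.000817). FLT1, a VEGFA receptor, rose in quiescent cells by 1.15 (adjusted p = 0.0229). In Ribo-seq, 6 of 9 tested receptor genes were lower after irradiation than after etoposide and none higher (22.5% of all genes called).

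The list of release and processing genes, which holds the ADAM proteases, proteases that cleave HGF and VEGFC, and heparan sulfate carriers and sulfatases that hold or release FGFs, showed the same direction. Of 23 tested genes, 14 were lower after irradiation than after etoposide in RNA and none was higher, with a median of -0.82 (22.6% of all genes called). In Ribo-seq 15 of 21 were lower and none higher, with a median of -1.19 (22.5%). Against cycling cells, 13 fell and 1 rose after irradiation (34.9%), and 5 fell and 4 rose after etoposide, a share near the 34.6% of all genes. SULF2, a heparan sulfate sulfatase, was the one that rose with both inducers, by 3.45 ± 0.36 after irradiation (adjusted p = 1.06e-05) and by 4.33 ± 0.37 after etoposide (adjusted p = 1.26e-06). After irradiation SPINT1, an inhibitor of the HGF-cleaving protease, was -3.49 from cycling cells (0.777 to 0.0640 CPM, adjusted p = 0.00625), and RHBDL2, a rhomboid protease, -2.84 (0.673 to 0.0897 CPM, adjusted p = 0.00542), both at very low levels. Under thapsigargin 9 of the 23 fell and 1 rose (24.5% of all genes called), with a log2 change of -2.42 for SULF1, another sulfatase (adjusted p = 0.000256).

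The ERK pathway is engaged by all of the receptor tyrosine kinases here. Of 20 known targets or feedback regulators of it, all of which were tested, 8 were lower in RNA after irradiation than after etoposide and none higher, with a median of -0.22 (22.6% of all genes called), and in Ribo-seq 6 were lower and 1 higher (22.5%). Against cycling cells the list was mixed in RNA. After etoposide 6 rose, 3 fell and 11 were not called, with a median of 0.20 (34.6% of all genes called). After irradiation 4 rose and 4 fell, with a median of 0.04 (34.9%). DUSP4 and DUSP6, phosphatases of ERK, rose after etoposide by 2.88 ± 0.26 (adjusted p = 2.01e-06) and 2.32 ± 0.20 (adjusted p = 1.48e-06), and less after irradiation, by 0.92 and 1.43 (adjusted p = 0.0138 and 8.86e-05). The direct differences were -1.96 for DUSP4 and -0.89 for DUSP6 (adjusted p = 7.6e-05 and 0.00195). CCND1, which encodes cyclin D1, rose with both, by 1.98 and 1.94, and EPHA4, an ephrin receptor, fell after irradiation (-1.63, adjusted p = 8.8e-05). Under thapsigargin 9 of these genes rose and 1 fell (24.5%).

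Hypoxia targets and PPAR targets were listed because VEGFA and ANGPTL4 belong to them. Of 13 tested hypoxia targets, 4 rose and 2 fell after irradiation (34.9% of all genes called), and 4 rose and 2 fell after etoposide (34.6%). Between the inducers 4 were higher and 4 lower after irradiation (22.6%). SLC2A1, the glucose transporter, fell in quiescent cells (-1.38, adjusted p = 0.00486). After irradiation CA12, a carbonic anhydrase, fell (-2.23, adjusted p = 4.22e-06) and MXI1, a MYC antagonist, rose (1.33, adjusted p = 6.74e-06). ADM, the vasodilator adrenomedullin, fell under thapsigargin (-2.27, adjusted p = 1.88e-06). Of 11 tested PPAR targets, 6 rose and none fell after etoposide (34.6% of all genes called), and 4 rose and none fell after irradiation, a share near the 34.9% of all genes. PDK4, which encodes a kinase of pyruvate dehydrogenase, had 0 counts in both cycling RNA-seq libraries and a mean of 3.92 CPM after etoposide, at least 63.3-fold higher if 3 counts over both cycling libraries are taken for 0. PLIN2, a lipid droplet protein, rose by 1.03 after irradiation and 0.54 after etoposide. FABP3 and FABP4 rose under thapsigargin, by 2.54 and 2.36 (adjusted p = 2.03e-06 and 0.000826).

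Of 25 other ligands of the same families, 16 were tested in RNA, and between the inducers 2 were lower and 1 higher after irradiation (22.6% of all genes called). After etoposide 2 rose and 1 fell (34.6%), and after irradiation 3 rose and 1 fell (34.9%), shares below those of all genes. ANGPT1, the ligand of the receptor TEK, rose from 26.2 to 125 CPM after etoposide (2.26 ± 0.44, adjusted p = 0.00156). Under thapsigargin 4 fell and 2 rose (24.5%). FGF10, FGF9 and ANGPTL1 were among those that fell, from mean levels of 1.06, 1.64 and 0.198 CPM to 0.0244, 0.408 and 0 CPM.

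**Figure D5:**
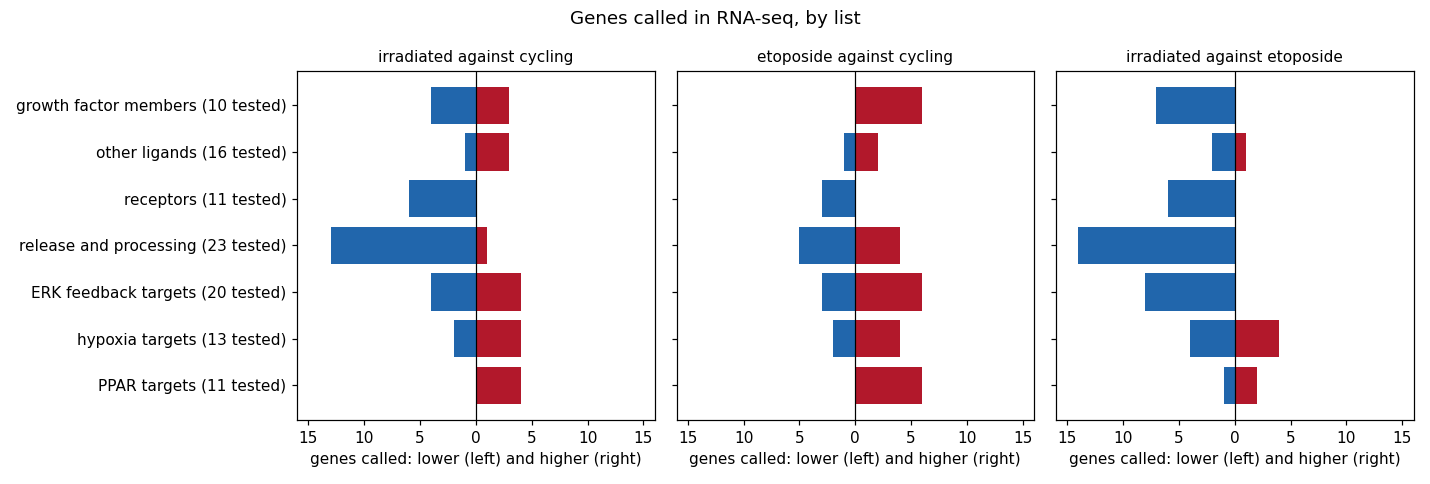
Number of genes called lower (blue, left) and higher (red, right) in RNA-seq for the 10 members and 6 lists around them, after irradiation and after etoposide against cycling cells and between the inducers, with the number of genes tested in each list. Between the inducers, the members, receptors, release and processing genes and ERK targets have calls in the lower direction only.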

How the data were processed

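The deposited unit is the raw read count of a gene, laid out like the gene counts of the STAR aligner, with 1 column for both strands and 1 for each strand, per the file headers' counting lines. The submitters' processing notes name bcl2fastq, STAR 2.7.10b, DESeq2 1.36.0 and the build hg38, with no role or order. The annotation is not given in the sources used here. Counts of the gene's strand were used (column 4 for RNA-seq, column 3 for Ribo-seq). The opposite strand held 5.41 to 10.7% of the RNA-seq and 3.56 to 4.22% of the Ribo-seq gene counts. Lines that name no gene (unmapped, multimapping, ambiguous), which held 28.9 to 72.4% of all reads in RNA-seq and 44.1 to 85.7% in Ribo-seq, were left out. Cycling RNA-seq replicate 2 had the most reads on the opposite strand among the RNA-seq libraries (10.7%). Its share of multimapping reads (33.4%) was the highest outside thapsigargin, where RNA-seq replicate 1 had 38.0%. Files list 62703 or 60664 gene IDs, and the 60534 shared by all were used. Replicates of a group differed by more than sampling noise (chi-square per degree of freedom 1.85 to 147), so each was counted once.

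Protein-coding genes that passed filterByExpr were fitted in edgeR 4.0.16 (R 4.3.3) with TMM scaling and robust quasi-likelihood tests over all 5 states: 13293 genes in RNA-seq, 11766 in Ribo-seq and 11715 in the joint fit of translational efficiency. DESeq2 1.42.0 was an alternative, as were RLE scaling, no filter on low counts, all biotypes, both strands together, only the groups compared, a replicate block and leaving out each library. The fit was tested on simulated counts with the same spread for all genes and libraries, so that test does not cover groups of unequal spread. Deviations from the group mean of same-numbered libraries correlated at 0.154, 0.272 and 0.264 between cycling and quiescent Ribo-seq, so for that comparison a blocked value is printed where a call changes. The Ribo-seq block gives each number 1 effect shared by all 5 states, also where the numbers do not pair. A block on the cycling and quiescent libraries alone was not fitted. In the other comparisons between states at least 1 pair was under 0.1 or there were fewer than 3 pairs. Counting intervals are exact 95% intervals and, like floors of 3 counts, cover counting error only. For the RNase step the series' design text gives 20 min and the labels' protocol 40 min, both for all Ribo-seq libraries.

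Besides the members, up to 4 genes of each list with the largest called RNA change against cycling cells were named, and the 3 genes most like each member whose state means span at least 2 on the log2 scale (log2 CPM with a prior count of 2). This ranking is not reported here for HBEGF. EGFR, ERBB2, FGFR1, FGFR3 and KDR were named after their values were seen. The members and the lists (other ligands, receptors, release and processing, ERK targets, hypoxia targets, PPAR targets and the cell type markers) were chosen with earlier results of these data known.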

Additional observations from a re-analysis of the deposited data

Results flagged for a closer look

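The effects of irradiation and of etoposide, each against the same cycling cells, differed by edgeR's quasi-likelihood test for 7 members in RNA (22.6% of all genes called) and 8 in footprints (22.5%), and each difference was in the direction of a lower level after irradiation. In RNA the differences on the log2 scale were -2.41 for EREG, -1.97 for NRG1, -1.95 for ANGPTL4, -1.90 for HBEGF, -1.68 for HGF, -1.25 for FGF2 and -0.63 for VEGFC. In footprints they were -3.76 for EREG, -3.05 for HBEGF, -2.77 for HGF, -2.55 for NRG1, -2.45 for ANGPTL4, -1.93 for VEGFC and -1.13 for FGF2. The fitted value of -4.74 for AREG rests on 2 footprints in the irradiated libraries and depends on how low counts are treated. The cycling libraries cancel out of these differences. FGF7 and VEGFA are the members with no such difference in either kind of library.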

How the results depend on the processing

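Of 190 member results (10 genes in 19 comparisons), 78 were called, 60 of them under every alternative, 18 were lost without at least 1 library and 9 under at least 1 other setting, and none of the 78 changed sign. The libraries behind the 18 are named beside each result printed. A higher ANGPTL4 RNA level after irradiation than in quiescent cells (0.95) was among the 9, lost with only the groups compared (adjusted p = 0.108). The number of members called in RNA in quiescent cells went from 1 to 0 when only the groups compared were fitted, and in footprints from 2 to 4 with DESeq2 and to 1 with no filter, with both strands or with only the groups compared. After irradiation the footprint count went from 4 to 8 with only the groups compared. The added calls were among AREG, EREG, NRG1, HGF and VEGFA. For translational efficiency the count under thapsigargin went from 1 to 0 with RLE scaling and 2 with DESeq2, between the inducers from 0 to 1 with DESeq2 and 2 with only the groups compared, and after irradiation from 0 to 1 with only the groups compared. Leaving out 1 library gave 0 to 1 members in RNA in quiescent cells, 4 to 7 in RNA after irradiation, 1 to 4 in footprints in quiescent cells, 4 to 8 in footprints under thapsigargin, 2 to 5 in footprints of irradiated against quiescent cells, and 0 to 2 and 0 to 1 in translational efficiency under thapsigargin and between the inducers. The cause was not tested.

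Some uncalled values changed sign. HBEGF after etoposide ranged from -0.60 to 0.30 in RNA when 1 library was left out (0.30 without cycling replicate 1) and from -0.22 to 0.30 in footprints (0.30 without cycling replicate 1, 0.08 without etoposide replicate 3). FGF7 RNA between the inducers ranged from -0.01 (without etoposide replicate 2) to 0.37. EREG footprints under thapsigargin were at -0.00 with no filter and -0.01 with both strands, and ranged from -2.17 (without thapsigargin replicate 2) to 0.87, with -0.21 without cycling replicate 1. Over all genes, fitting only the groups compared moved the calls from 2068 to 852 in RNA in quiescent cells, from 3259 to 1512 in RNA under thapsigargin, from 3986 to 6020 in footprints after etoposide, from 2653 to 4134 in footprints between the inducers, and for translational efficiency from 6 to 756 after irradiation, from 8 to 28 after etoposide, from 0 to 606 between the inducers and from 2430 to 1053 under thapsigargin. Leaving out 1 library moved counts over 1.5 times too. In RNA, without cycling replicate 1 or 2, they were 707 and 889 in quiescent cells, 2778 and 3090 (of 4643) after irradiation, 2612 and 2917 (of 4593) after etoposide and 1723 and 1593 under thapsigargin. Irradiated against quiescent RNA went from 2488 to 1440 to 1545 without any 1 irradiated library, and RNA between the inducers from 3000 to 1893 without irradiated replicate 1 and 1841 without etoposide replicate 2. Quiescent footprints went from 2631 to 1558 without cycling replicate 3, irradiated against quiescent footprints from 1713 to 939 to 1104 without any 1 irradiated library or quiescent replicate 2, and footprints between the inducers to 1500 without irradiated replicate 1 and 1733 without etoposide replicate 2. For translational efficiency under thapsigargin the count was 1557 without cycling RNA-seq replicate 1 and 3769 without thapsigargin Ribo-seq replicate 2, and in the other 4 comparisons it was at most 36 without any 1 library. DESeq2 called 6, 32, 40 and 6 genes for translational efficiency in quiescent cells, after irradiation, after etoposide and between the inducers, against 1, 6, 8 and 0.

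Outside the cycling and quiescent Ribo-seq libraries equal replicate numbers did not pair the states: correlations of same-numbered libraries ran from -0.19 to 0.47 in RNA and -0.19 to 0.27 in footprints, and 6 of 13 and 9 of 14 libraries correlated best with their own number. Between RNA-seq and Ribo-seq of 1 state they ran from -0.02 to 0.57 (8 of 13), with all 3 above 0.1 after etoposide (0.134, 0.382 and 0.199). With the number as a replicate block the members called in footprints were 3 in quiescent cells and 5 after irradiation, each by the gain of VEGFA, and 7 for etoposide against quiescent cells, by the loss of HBEGF, and the counts in the other 16 comparisons were the same as without the block. Few footprints in irradiated libraries (2 of AREG and 8 of EREG in all) limit their values.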

Other observations

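Reads on the strand opposite to a member made up under 1% of both strands in most cases. In Ribo-seq, FGF2 had 755 footprints on the opposite strand (3.79% of both strands) and EREG 29 (7.44%), while the other 8 members had at most 14. In RNA-seq ANGPTL4 had 70 such reads (6.23%), and the shares of the other 9 were at most 0.661% (41 reads of EREG), with 940 reads of FGF2 (0.445%) and 511 of FGF7 (0.436%).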
